A study of Mus musculus with 384 samples.

Results

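Alveolar type II epithelial genes were followed through single cells that had been sorted as lung mesenchyme. The 33 genes were listed by name: surfactant proteins and the other proteins of lamellar bodies, keratins, claudins and adhesion proteins of epithelium, lipid enzymes, transcription factors, and 3 genes of alveolar type I cells (Ager, Hopx and Pdpn). Of the 33, 32 had a row among the 23422 genes with counts and the 22276 genes of the filtered expression table, and Cxcl15 was not analysed here.

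The cells came from adult mouse lungs (most mice of the study were 7 to 10 weeks old), from 2 Lgr5-IRES-CreERT2 mice carrying the R26-Tom reporter, in which tamoxifen-activated Cre marks cells of the Lgr5 lineage permanently with TdTomato, and from 2 Lgr6-EGFP-IRES-CreERT2 mice, in which EGFP reports current activity of the Lgr6 locus. Cells positive for the reporter and negative for CD31, CD45, CD11b and TER119 were sorted singly, 95 per mouse with 1 pool of cells beside them. The stain also held an antibody to EpCAM, and the labels name no EpCAM gate for these wells. The study asked which mesenchymal populations the 2 receptors mark. All 4 mice therefore carried a CreERT2 allele, and the 2 lines differ in how cells were marked, so line and marking method cannot be told apart.

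Alveolar type II cells make pulmonary surfactant, the film of phospholipid and protein that keeps alveoli from collapsing at low volume. The lipid and the hydrophobic proteins SFTPB and SFTPC are packed in lamellar bodies, whose membrane carries the lipid transporter ABCA3, while SFTPA1 and SFTPD are secreted collectins that bind microbes. These cells also give rise to the flat alveolar type I cells, and NKX2-1 is the transcription factor that maintains their identity.

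The mesenchymal filter applied by the authors kept 29, 28, 50 and 75 cells of Lgr5 mouse 1, Lgr5 mouse 2, Lgr6 mouse 1 and Lgr6 mouse 2, which is the order of mice in every list of 4 values here. It required at least 2000 genes, a TPM (the length-normalised transcript abundance) below 1 for Ptprc and for Pecam1, and criteria on housekeeping genes, on the highest gene numbers and on the R26-Tom transcript, but none on an epithelial gene. Kept cells held from 9748 to 4538878 read counts, with medians per mouse of 263129, 272729, 332588 and 1537590, and no pair of kept libraries was identical. Reads were amplified by PCR with no molecular identifiers, so each interval given here covers counting error only.

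Promoters of 26 of the 33 genes were matched in RefSeq (GRCm38.p6), as the 250 bases before the start of transcription. They were searched on both strands for CTCAAG, the core that NKX2-1 is known to bind, and for TTGCNNAA, a C/EBP core, since both factors act in type II cells. The 26 genes had 30 promoter windows, since 4 of them have 2 start sites. The first motif was found in 4 of the 30 windows (13.3%) and in 13.3% of all 32851 windows of that length, and the second in 2 (6.67%) and in 9.56%. The motifs can overlap, since a C/EBP core can end in the first 5 letters of CTCAAG. Shown first are the 3 surfactant-related genes with a CTCAAG match, in capitals, and then Krt7, a keratin with neither motif whose reads were spread differently over the cells (described with the keratins).
Sftpb (chr6:72304360-72304609, plus strand): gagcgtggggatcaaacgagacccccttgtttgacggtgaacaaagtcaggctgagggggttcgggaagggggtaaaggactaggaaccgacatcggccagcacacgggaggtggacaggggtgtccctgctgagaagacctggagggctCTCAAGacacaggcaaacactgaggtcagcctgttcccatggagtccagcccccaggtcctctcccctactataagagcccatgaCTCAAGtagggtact
Sftpa1 (chr14:41131538-41131787, plus strand): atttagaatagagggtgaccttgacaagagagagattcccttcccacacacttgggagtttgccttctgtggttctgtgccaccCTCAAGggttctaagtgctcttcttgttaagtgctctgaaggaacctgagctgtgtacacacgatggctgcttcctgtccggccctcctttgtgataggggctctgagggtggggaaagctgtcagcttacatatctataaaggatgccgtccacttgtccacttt
Sfta2 (chr17:35649458-35649707, plus strand): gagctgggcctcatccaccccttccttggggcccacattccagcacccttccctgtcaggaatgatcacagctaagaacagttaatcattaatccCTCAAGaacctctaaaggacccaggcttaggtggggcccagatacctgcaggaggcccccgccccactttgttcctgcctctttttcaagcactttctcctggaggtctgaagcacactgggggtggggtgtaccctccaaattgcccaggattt
Krt7 (chr15:101412153-101412402, plus strand): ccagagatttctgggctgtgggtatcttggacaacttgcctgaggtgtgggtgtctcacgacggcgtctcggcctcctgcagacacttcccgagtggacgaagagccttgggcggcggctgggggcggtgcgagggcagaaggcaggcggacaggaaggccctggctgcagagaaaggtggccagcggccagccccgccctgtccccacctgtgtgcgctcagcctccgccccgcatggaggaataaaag
Sftpb held 2 matches, 100 and 15 bases upstream of the start, and Sftpa1 and Sfta2 1 each. The remaining promoter with a match was that of Hopx, on the minus strand. The C/EBP core was found in Slc34a2 and Lcn2, 48 and 216 bases upstream.

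To ask which cells carry many of these genes and which carry surfactant reads alone, each cell was placed by how many of 15 panel genes it held above a TPM of 1 (Epcam, Cdh1, Krt7, Krt19, Cldn18, Cldn3, Cldn7, Slc34a2, Lamp3, Napsa, Abca3, Nkx2-1, Sfta2, Muc1 and Elf3). Cells with 6 or more were called broad, cells with 1 to 5 few, cells with none of the panel but with Sftpc, Sftpb, Sftpa1 or Sftpd surfactant alone, and the rest none. These are ranges of a score, not cell types, and no test was made on them. Of the kept cells of all 4 mice, 15 were broad (8.24%, exact 95% binomial interval 4.69 to 13.2), 110 were few, 21 were surfactant alone and 36 were none.

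Broad cells numbered 1, 5, 4 and 5 in the 4 mice. The shares were 3.45% (0.0873 to 17.8), 17.9% (6.06 to 36.9), 8% (2.22 to 19.2) and 6.67% (2.2 to 14.9), so both lines held them and the intervals of all 4 mice overlapped. Surfactant-alone cells numbered 3, 2, 5 and 11, and few cells 25, 18, 27 and 40. The name surfactant alone refers to the panel only. The 21 surfactant-alone cells had 1 to 5 listed genes (median 2), with Etv5, Scd1 and Fasn in 4 cells each. Cells of the none class, which lack the panel and the 4 surfactant genes, numbered 0, 3, 14 and 19, and 16 of these 36 had 1 to 3 other listed genes such as Fasn (4 cells) or Lyz2 (3 cells); 0 of 29 in Lgr5 mouse 1 allows a share of up to 10.3%. The plot of classes by mouse shows broad cells as a thin band in each mouse and the none class mainly in the Lgr6 mice. A single read passes a TPM of 1 more easily in a shallow cell, and median depth was lower in the Lgr5 mice. The part of depth in this contrast was not tested.

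**Figure D1:**
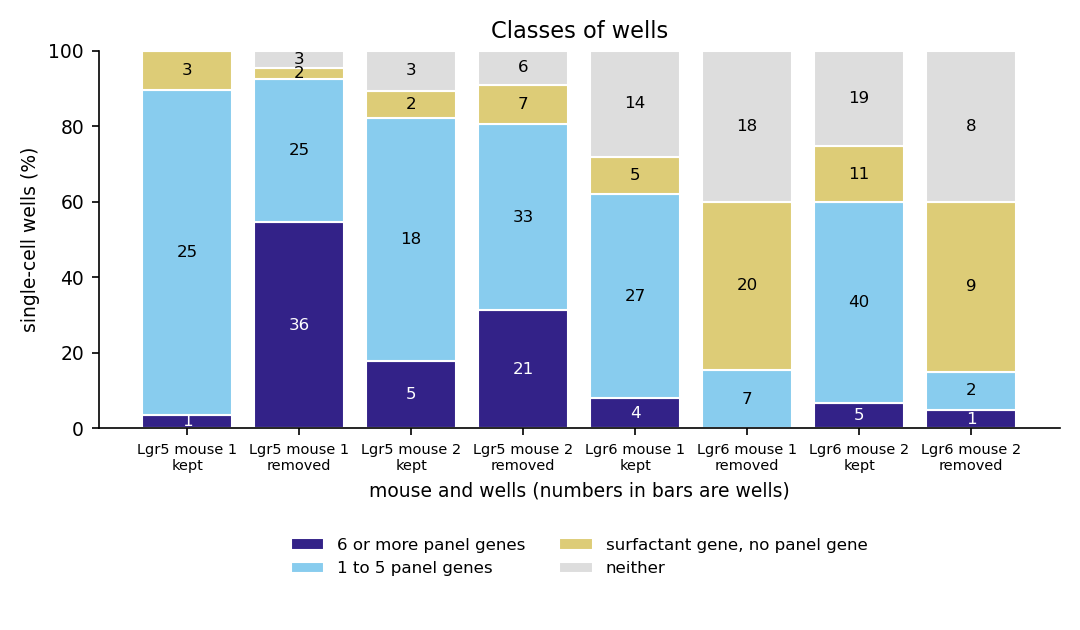
Share of single-cell wells (percent, y axis) of each mouse in the classes broad, few, surfactant alone and none, for the kept cells and for the wells that the authors' filter removed. Broad cells made up 3.45 to 17.9% of kept cells per mouse, and 36 and 21 removed wells of the Lgr5 mice were broad against 0 and 1 of the Lgr6 mice.

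Sftpc (chromosome 14, 70520949 to 70524081, minus strand, GRCm38), the surfactant gene whose product is made almost only by type II cells, split the broad cells. Of the 15 broad cells, 12 had a log2(TPM + 1) of 15 or more, a limit chosen after the values were seen: they lay between 15.05 and 19.20 with a median of 18.28, and the next kept cell was at 12.54. They came from all 4 mice, 1, 2, 4 and 5 cells. Another 48 kept cells had Sftpc reads below that limit and the rest had none. The plot of Sftpc against the panel count shows the 12 apart from all others in Sftpc, and 10 of them, with 12 to 15 panel genes, apart in the panel too.

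**Figure D2:**
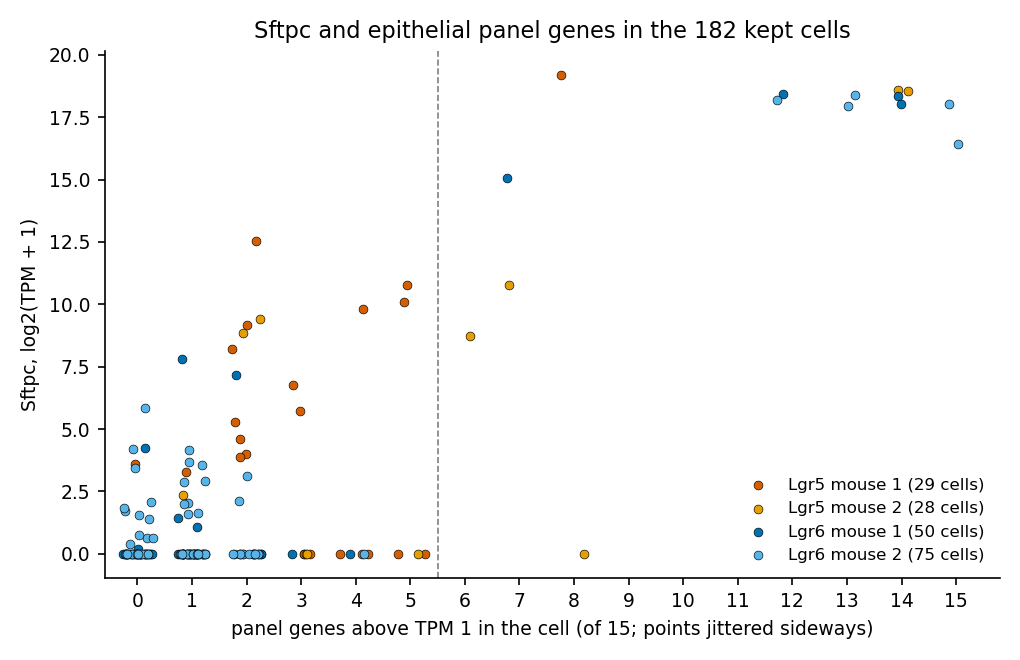
Sftpc level (log2(TPM + 1), y axis) against the number of panel genes above a TPM of 1 (x axis), 1 point per kept cell, coloured by mouse. The 12 cells at 15.05 or more had 7 to 15 panel genes, and the next highest Sftpc level was 12.54.

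In these 12 cells the 32 genes together took 4.13 to 69.5% of all TPM (median 43.1%), and the 4 surfactant genes alone 3.85 to 65% (median 34.6%). In the kept cells outside the broad class (28, 23, 46 and 70) the 32 genes took at most 0.831%. Both sets of cells were formed with Sftpc or panel genes, which are among the 32, so this gap follows in part from the choice. Lgr5 and Lgr6, the genes of the 2 lines, were each above a TPM of 1 in 1 of the 12 cells, Vim (vimentin) in 2, Acta2 (smooth muscle actin) in 2, Col1a1 (a fibroblast collagen) in 1 and Pdgfrb and Col1a2 in 0. Each of the 12 had 8 or 9 of the 9 measured type II markers. The choice of cells set this count in part, so it does not test the label of the gene list. Sftpc gave the limit, and Slc34a2, Lamp3, Napsa, Abca3 and Sfta2 belong to the panel. Of 8 mesenchymal markers, 3 of the 12 cells had any, with a median of 0 per cell and at most 5.

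Among the secreted surfactant proteins, Sftpc was followed by Sftpa1 with a median log2(TPM + 1) of 14.15 (lowest 10.71, highest 15.38), Sftpd with 12.43 (10.84 to 13.02) and Sftpb with 11.34 (10.12 to 12.38). All 4 were above a TPM of 1 in all 12 cells. For Sftpc the 3 Lgr5-line cells (18.56 to 19.20) lay above the 9 Lgr6-line cells (15.05 to 18.41), and for the other 3 genes the cells overlapped. The Lgr5 mice gave 1 and 2 of these cells, and all 12 were chosen by their Sftpc level. Cells are not replicates, so this is no comparison of the lines. Lyz2, lysozyme, which type II cells and macrophages both make, had a median of 15.98 and was found in 11 of the 12.

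Genes of lamellar bodies and of lipid supply were present in nearly every one of the 12. Slc34a2, the phosphate cotransporter of the type II cell surface, had a median log2(TPM + 1) of 11.80, Napsa, the protease that processes surfactant proteins, a range of 8.25 to 11.88, Lamp3, a lamellar body membrane protein, 9.68 and Abca3 7.56. Scd1, a fatty acid desaturase, had a median of 11.24, Fasn, fatty acid synthase, 7.80 and Lpcat1, which makes the main surfactant phospholipid, 6.89. Slc34a2, Napsa, Abca3 and Scd1 were above a TPM of 1 in all 12 cells and Lamp3, Fasn and Lpcat1 in 10 or 11.

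Epithelial structure genes were lower than the surfactant genes on this length-normalised scale. The tight junction gene Cldn3 had a median of 9.74, Cldn18, the lung claudin, 7.74, and Cldn7 7.18. Simple-epithelial keratins Krt18 and Krt8 had medians of 8.69 and 7.81, the adhesion genes Cdh1 (E-cadherin) 7.30 and Epcam 6.30, and the membrane mucin Muc1 10.32. Krt8, Krt18, Cldn3 and Muc1 were found in all 12, Epcam and Cdh1 in 10 each, and Krt7 and Krt19 in 8 and 6.

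Of the transcription factors, Etv5, a target of FGF signalling, had a median of 8.10 and was found in 10 or more of the 12, whereas Nkx2-1 was found in 7 (median 4.29) and Elf3 in 8 (5.07). Of the 3 type I genes, Ager was found in all 12 with a median of 9.77, Hopx in 1 and Pdpn in 0. Thus 13 of the 32 genes were found in all 12 cells, 13 in 10 or 11, 5 in 1 to 9, and Pdpn in none.

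**Figure D3:**
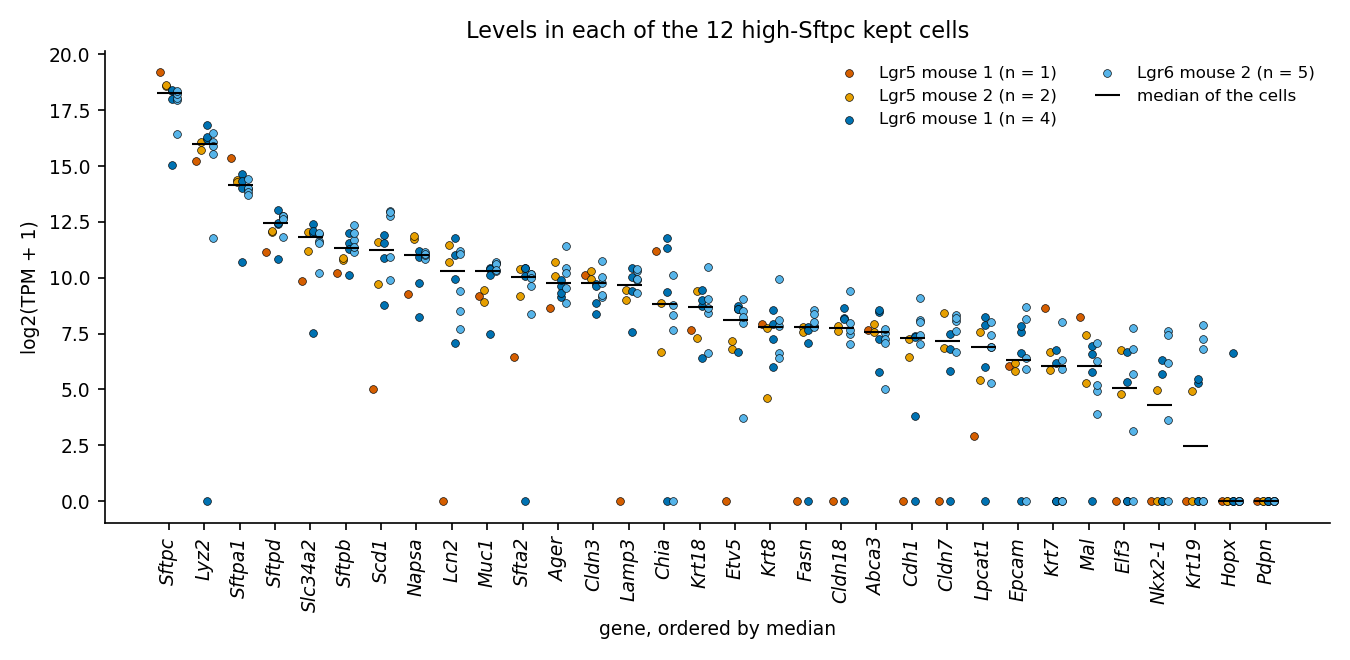
Level (log2(TPM + 1)) of each gene in each of the 12 kept cells with the highest Sftpc, with cells coloured by mouse. Sftpc, Lyz2 and Sftpa1 sat highest, with medians of 18.28, 15.98 and 14.15, and Pdpn was at 0 in all 12.

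The 12 cells were not alike in all genes. The cell of Lgr5 mouse 1 had the highest Sftpc (19.20) and the highest share of TPM in the listed genes, yet Lamp3, Etv5, Lcn2, Cldn18 and Cdh1 were at 0, Scd1 was at 5.03, and it was the 1 cell of the 12 with Lgr5 (6.77). A cell of Lgr6 mouse 2 showed the reverse: Sftpc at 16.44, Lyz2 at 11.78 and Chia, a chitinase, at 0, with Krt8 at 9.94, Krt18 at 10.48, Cldn18 at 9.43 and Ager at 11.43, the highest of the 12 for each of these 4 genes. A cell of Lgr6 mouse 1 with 23393 reads had the lowest Sftpc (15.05) and had Vim at 9.23, Acta2 at 6.18 and Hopx at 6.61, with Lyz2, Epcam and Cdh1 at 0. Low depth and genes of 2 cell types thus occurred in the same well, and whether that well held more than 1 cell was not tested.

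The other 3 broad cells were all from Lgr5 mouse 2 and were not like the 12. One had no Sftpc read, with Cyp2f2, a club cell cytochrome, at 13.19, Krt8 at 8.75, Cldn3 at 9.89 and Nkx2-1 at 6.27, and all 4 measured markers of ciliated cells. Another had Vim at 10.13, Col1a1 at 8.69, Lgr5 at 6.30 and Sftpc at 8.72, and the last had Vim at 10.62, Scgb1a1, the club cell secretoglobin, at 13.73 and Sftpc at 10.76, again with all 4 ciliated markers. The latter pair had 6 and 7 panel genes, just inside the limit. Just outside it, 5 kept cells had 5 panel genes, 4 from Lgr5 mouse 1 and 1 from Lgr5 mouse 2; all 5 held Krt7 and Krt19, and Sftpc was at 0 in 3 of them and at 10.76 and 10.11 in the other two.

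Nearly all surfactant reads of kept cells lay in the broad class. Per mouse, it held 99.9 to 100% of Sftpc counts, 99.5 to 100% of Sftpa1, 99.7 to 100% of Sftpd and 95.3 to 99.7% of Sftpb. Of the 17 genes that the panel did not use, 8 had over 95% of their counts in broad cells in every mouse with a count of the gene. These were Sftpc, Sftpb, Sftpa1, Sftpd, Lyz2, Chia, Mal and Lcn2, of which Lcn2 had 0 counts in Lgr5 mouse 1. Others were spread over the remaining cells in at least 1 mouse: broad cells held 16.7 to 86.9% of Etv5 counts, 17 to 100% of Lpcat1 and 49.5 to 99.8% of Ager, and among panel genes 15.4 to 93.7% of Abca3. Pdpn had none of its counts in broad cells. How many of all genes passed the same 95% is not given here, so these counts describe the listed genes only.

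Outside the broad class, every kept cell held mesenchymal markers, with Vim in 94.6% of them and Col3a1 in 97.6%. Even so, 99 of them had at least 1 surfactant gene above a TPM of 1, and this was mainly Sftpb (chromosome 6, 72304610 to 72314371, plus strand). Sftpb was found in 27 of 28 (96.4%), 16 of 23 (69.6%), 15 of 46 (32.6%) and 26 of 70 (37.1%) cells of the 4 mice, so the Lgr5 and Lgr6 mice did not overlap. Sftpc was found in 14, 3, 5 and 19 of the same cells (50, 13, 10.9 and 27.1%), and here the mice of the 2 lines overlapped. Sftpa1 was found in 9, 2, 3 and 2 cells and Sftpd in 4, 0, 0 and 2.

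These levels rested on few reads. At least 1 Sftpb read was present in 27, 17, 23 and 49 of these cells, with a median of 2 reads and at most 24. Sftpc had 752 reads over all of them, of which 573 were in Lgr5 mouse 1, with 331 in a single cell. Among the 21 surfactant-alone cells, the 16 with Sftpb had a median of 2.5 reads and the 10 with Sftpc 1.5, with median log2(TPM + 1) of 2.45 and 2.77. Sftpb was the sole surfactant gene in 49 cells and Sftpc in 10. Other wells of the same sorts held these genes at high levels, and whether their RNA contributed was not tested.

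Depth moved with the lines: these cells had median counts of 259166, 248686, 380608 and 1510200 in the 4 mice, and 1 read passes a TPM of 1 more easily in a shallow cell. Counting any read, Sftpb was present in 96.4, 73.9, 50 and 70% of them. When each kept cell was thinned to 99000 reads (1, 3, 13 and 2 shallower cells left out), Sftpb was detected in 78.6, 44, 18.9 and 16.4% of cells and Sftpc in 28.6, 24, 8.11 and 9.59%, broad cells included. Without thinning, mean Sftpc over all kept cells was 4.03, 2.76, 1.83 and 1.91 (log2(TPM + 1)), a line mean of 3.40 ± 0.90 against 1.87 ± 0.05 (SD, n = 2 mice each). With 2 mice against 2, a two-sided exact permutation test cannot give a p below 0.333, the value it gave for each gene whose lines did not overlap.

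**Figure D4:**
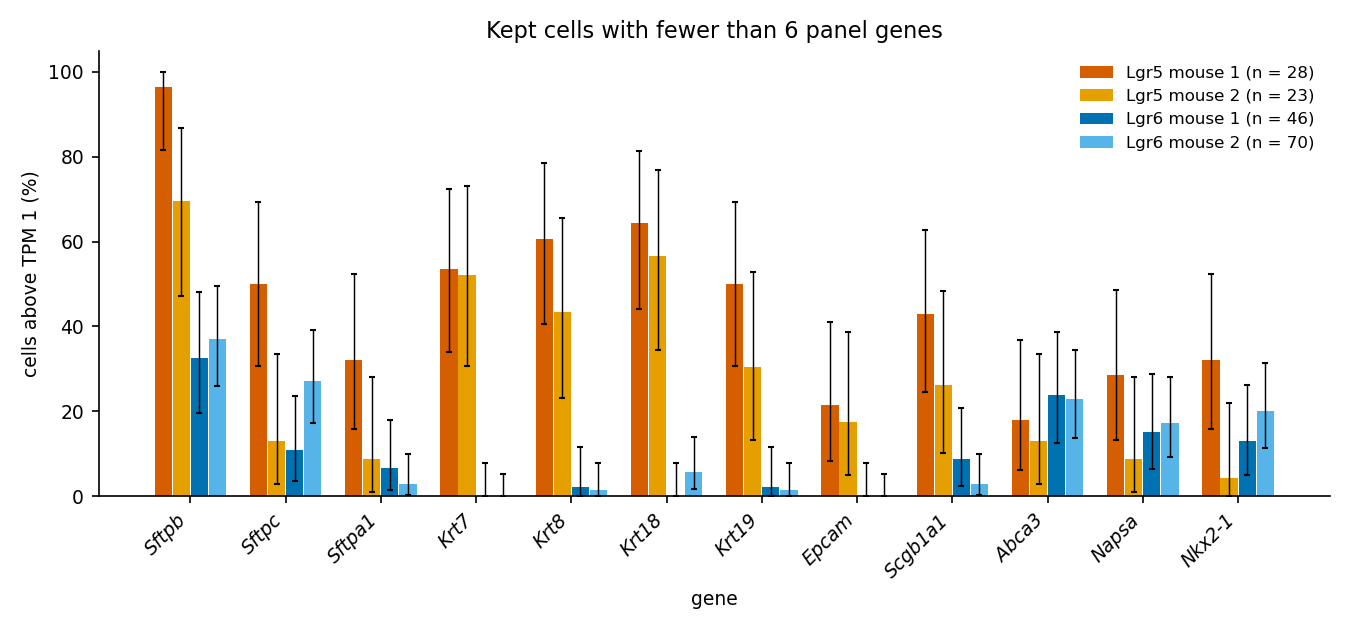
Share of kept cells outside the broad class (percent, y axis) with each gene above a TPM of 1, by mouse, with exact 95% binomial intervals as bars. Sftpb was found in 96.4 and 69.6% of cells in the Lgr5 mice and in 32.6 and 37.1% in the Lgr6 mice, and Krt7 in 53.6 and 52.2% against 0 and 0%.

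Keratins outside the broad class were found mainly in the Lgr5 mice. Krt7 (chromosome 15, 101411043 to 101430313, plus strand), a simple-epithelial keratin, was found in 15 of 28, 12 of 23, 0 of 46 and 0 of 70 cells; the last 2 counts allow shares of up to 6.52 and 4.29%. Krt8 was found in 17, 10, 1 and 1 cells, Krt18 in 18, 13, 0 and 4, and Krt19 in 14, 7, 1 and 1. Epcam was found in 6, 4, 0 and 0. All 4 keratins together were found in 9, 5, 0 and 0 cells. In this share, both Lgr5 mice were above both Lgr6 mice for 12 of 29 listed genes, these 5 and Sftpb among them, where 29.9% of all genes were so. Both Lgr6 mice were above for 3 of the 29, where 11% of all genes were.

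The 27 Lgr5-line cells with Krt7 also carried mesenchymal genes. Vim was found in all 27, Col1a1 in 23 and Lgr5 in 22, beside Krt8 in 24, Krt18 in 23 and Krt19 in 16, and Krt7 itself had medians of 5.55 and 5.58 (log2(TPM + 1)) in the 2 mice. Sftpc was found in 8 of them, Epcam in 8 and Scgb1a1 in 8. Of the 24 Lgr5-line cells without Krt7, 24 had Vim, 24 Col1a1 and 15 Lgr5, but 3 had Krt8, 8 Krt18 and 5 Krt19, while Sftpb was found in 22 and 21 of the 2 sets and Sftpc in 8 and 9. Thinned to the common depth, Krt7 was detected in 50, 48, 2.70 and 4.11% of cells, broad cells included. Outside the broad class the keratin levels of the Lgr5 mice rested on few reads. Krt7 had 91 and 75 reads over all these cells of the 2 mice, with at most 18 and 22 in a cell. Krt8 had 74 and 41 reads, Krt18 78 and 96, Krt19 49 and 54 and Epcam 11 and 20. Whether RNA of other wells contributed was not tested.

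Abca3, of the lamellar body membrane, was found in 5, 3, 11 and 16 cells outside the broad class. In the 27 Lgr6-line cells it had a median of 6.26 (log2(TPM + 1), highest 8.18) with medians of 31 and 448.5 reads in the 2 mice, so it did not rest on single reads. Slc34a2, Lamp3, Sfta2, Cldn18, Epcam and Sftpd were found in 0 of the 27, Sftpa1 in 2, Sftpc in 3, Napsa in 4, Nkx2-1 in 5 and Sftpb in 11. Vim was found in 26 and Acta2 in 25. Among all Lgr6-line cells outside the broad class, Slc34a2 and Cldn18 were found in 3 each, Sftpd in 2 and Lamp3, Sfta2 and Epcam in 0. The absence of these genes was therefore not particular to the 27. Napsa was found in 8, 2, 7 and 12 cells outside the broad class and Nkx2-1 in 9, 1, 6 and 14, with no separation of the lines.

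**Figure D5:**
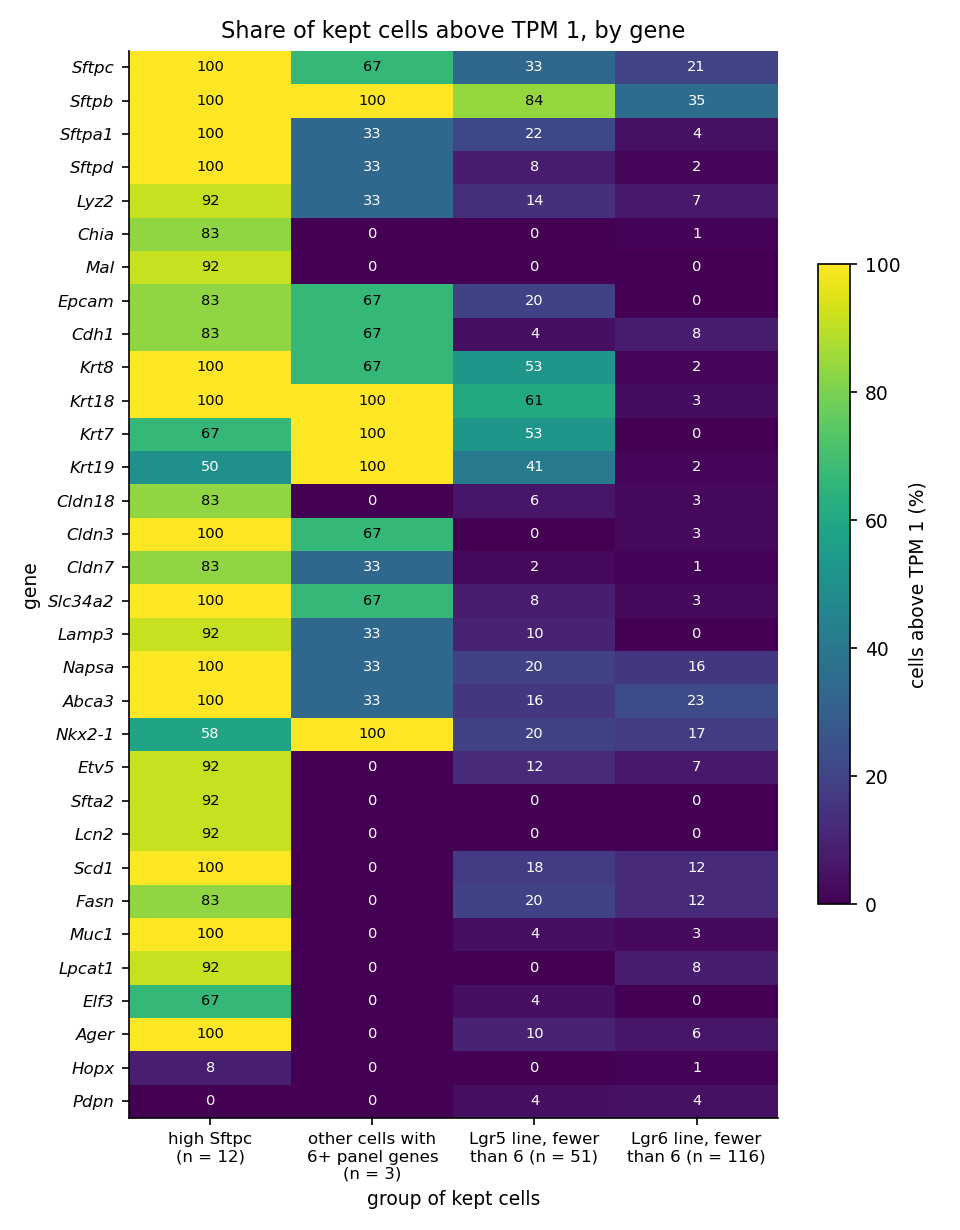
Share of kept cells (percent) with each listed gene above a TPM of 1. Columns are the 12 cells with the highest Sftpc, the 3 other broad cells, and the Lgr5-line and Lgr6-line cells outside the broad class. The median over the 32 genes was 91.7% in the 12 cells and 6.29% outside, and Pdpn was the single gene with a lower share in the 12. Sftpc and the panel genes are among the 32 and were used to form these columns. The difference in medians therefore follows in part from the choice of cells and tests nothing. It was not taken over the unused genes alone.

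For the comparison of the lines, counts of kept cells were summed per mouse and tested with edgeR's quasi-likelihood test over 14086 genes. No gene was called at an adjusted p of 0.05 (0% of genes tested; 1312 had an unadjusted p under 0.05, and DESeq2 called 567), and 0 of the 31 listed genes tested were called, 5 with an unadjusted p under 0.05 (DESeq2 called 2, Krt7 and Mal). Sftpc had CPM (read counts scaled to library size) of 44555, 27742, 1231 and 10431, a log2 fold change of Lgr5 over Lgr6 of 2.63 (SE 0.87, adjusted p = 0.391 by edgeR). Krt7 had 82.5, 19.8, 0.501 and 6.24, a log2 fold change of 3.92 (SE 1.52, adjusted p = 0.481 by edgeR). In Lgr5 mouse 1, the 1 broad cell, with 1456595 of 9874249 summed counts, held 99.9% of Sftpc and 89.5% of Krt7 counts. The 4 broad cells of Lgr6 mouse 1 had 23393 to 155346 counts each, of 28875278 summed. These sums thus weight each broad cell by its depth. The median log2 fold change was 1.03 over the 31 genes and -0.05 over all genes, and 25 of the 31 were above 0. The list's median moved with single mice, to 0.10 without Lgr5 replicate 2, 0.16 without Lgr6 replicate 1 and 3.08 without Lgr6 replicate 2. Without the broad cells, Sftpc was at 59.9, 11.2, 0.323 and 0.609 CPM, a lower level in every mouse and a wider log2 fold change of 6.23 (SE 1.57, adjusted p = 0.386 by edgeR). Krt7 was then at 9.51, 7.97, 0 and 0 CPM, so that its fitted log2 fold change of 11.39 (adjusted p = 0.386 by edgeR) depends on the prior count. With limma on the mean TPM of each mouse (pseudocount 1), 8 of 31 were above 0 and their median was -0.78, against -0.29 over all genes, so the direction over the list changed with the method; which of its differences mattered was not tested.

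As means of log2(TPM + 1), which weight cells equally, 10 of the 32 genes (31.2%) had both Lgr5 mice above both Lgr6 mice, where 26.8% of all genes did. These were Sftpc, Sftpb, Sftpa1, Lyz2, Epcam, Krt8, Krt18, Krt7, Krt19 and Napsa. Both Lgr6 mice were above both Lgr5 mice for 5 of the 32 (15.6%), where 15.8% of all genes were so (Cldn18, Abca3, Scd1, Lpcat1 and Hopx). Both shares were close to those of all genes. The widest differences were in 3 keratins: Krt7 had means of 3.05, 3.23, 0.26 and 0.27, Krt18 of 3.22, 3.86, 0.67 and 0.75, and Krt8 of 2.82, 2.64, 0.62 and 0.60.

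The wells that the filter removed held most of the broad profiles in the Lgr5 line. Broad wells numbered 36, 21, 0 and 1 among 66, 67, 45 and 20 removed wells; 0 of 45 allows a share of up to 6.67%. Of these 58, Ptprc (the leukocyte gene for CD45) or Pecam1 (the endothelial gene for CD31) was at a TPM of 1 or more in 54, Vim in 58 and Scgb1a1 in 57, and they had a median of 9474 genes against 5406 in the 15 kept broad cells. The filter removed wells with Ptprc or Pecam1 at that level, so the count of 54 largely follows from it. The median Sftpc of the 58 wells was 12.25 (log2(TPM + 1)), below the 15 that marked the 12 kept cells. Removed wells differed between the lines: 50 of 66 and 50 of 67 in the Lgr5 mice had 2000 genes or more with Ptprc or Pecam1, whereas 41 of 45 and 14 of 20 in the Lgr6 mice had fewer than 2000 genes. In the broad ones, transcripts of several lung cell types were present in the same well. Among all removed wells, 28 reached that Sftpc level (8, 18, 2 and 0), 6 of them with fewer than 2000 genes.

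Kept and removed wells were then compared within mice, with the mouse as a block. edgeR's quasi-likelihood test called 0 of 17510 genes in either direction (0% higher and 0% lower in removed wells; 692 at an unadjusted p under 0.05, DESeq2 508) and 0 of the 32 listed genes (4 at an unadjusted p under 0.05; DESeq2 called 6, all lower in removed wells). The number of genes was part of the filter, and depth and gene number moved with this comparison. Sftpc had 43327, 27658, 1148 and 9713 CPM in kept wells and 9040, 9403, 3.79 and 12 in removed wells, lower in removed wells in 4 of 4 mice, with a log2 fold change of -5.33 (SE 1.60, adjusted p = 0.914 by edgeR). The difference was -1.90 in the Lgr5 mice alone (adjusted p = 0.246 by edgeR) and -9.10 in the Lgr6 mice alone (adjusted p = 0.000466 by edgeR), and without broad wells it was 3.19 in the other direction. The median over the listed genes was -1.95 and over all genes -0.02.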

How the data were processed

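RNA of 380 sorted single cells and 4 pools was sequenced by a modified Smart-seq2 method. The authors deposited gene counts, which they made with bcl2fastq 2.17.1.14 and kallisto 0.43.0 (k-mers of 31, mm10 transcriptome, counts of transcripts summed to genes), and log2(TPM + 1) values of the 182 cells they kept; the release of the annotation is not given in the sources used here. Wells absent from the second table were taken as removed. Kept cells held 9748 to 4538878 counts, which limits single-cell values to a few reads for low genes.

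The listed genes and the panel were chosen with earlier results of these data known. A gene was found in a cell where TPM was above 1; for removed wells TPM was taken from the deposited table of all wells. The mouse was the replicate, and 2 mice per line may not span the variation between animals. Counts were summed per mouse and tested with edgeR 4.0.16 (TMM, filterByExpr, quasi-likelihood test, Benjamini-Hochberg adjustment, threshold 0.05) in R 4.3.3. DESeq2 1.42.0, limma 3.58.1 (pseudocounts 1 and 0.1), other filters, other cut-offs and leaving out each mouse were alternatives. Single values were compared with the exact permutation test of SciPy 1.17.1, and shares carry exact (Clopper-Pearson) 95% intervals, with 3 counts as the limit where none was seen. The tests were also run on simulated counts with the same dispersion for every gene. These data are less uniform, so no conclusion is drawn from those runs.

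The numbers 1 and 2 name different animals in the 2 lines and their deviations correlated at 0.036, so they do not pair the lines; kept and removed wells of a mouse come from the same animal, and the mouse was their block. Named genes were all listed genes, the mesenchymal genes of the study, the 10 other genes with the widest difference in share between broad and other kept cells, and lists of other type II and lipid genes. Coordinates are from GENCODE for GRCm38 and promoters from RefSeq for GRCm38.p6, as 250 bases before the start.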

Additional observations from a re-analysis of the deposited data

Results flagged for a closer look

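The difference between removed and kept wells of a mouse was not the same in the 2 lines for 3 of the listed genes. This test of the difference itself, in the same edgeR fit over 17510 genes and chosen after the data were seen, called 5 genes, of which 3 were listed. For Sftpc the log2 fold change of removed over kept wells was higher by 7.06 in the Lgr5 mice than in the Lgr6 mice (adjusted p = 0.00329 by edgeR). For Sftpd it was higher by 12.08 (adjusted p = 0.0211) and for Slc34a2 by 16.30 (adjusted p = 0.0204). The last 2 values depend on the prior count and are no bound, since Slc34a2 had 0 CPM in the removed wells of both Lgr6 mice and Sftpd 0 and 0.068. The removed wells were of different kinds in the lines: 50 of 66 and 50 of 67 in the Lgr5 mice had 2000 genes or more with Ptprc or Pecam1, and 41 of 45 and 14 of 20 in the Lgr6 mice had fewer than 2000 genes. The part of this in the difference was not tested. All removed wells but 1 with a broad profile came from the Lgr5 mice, and the median of this difference over all genes was 1.57.

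The pools were in no comparison and held surfactant reads. In the pool of Lgr5 mouse 1, with 353310 counts, there were 99 counts of Sftpc, 5 of Sftpb and 38 of Sftpa1, each above the limit that a count of 0 allows, while the pools of Lgr5 mouse 2 and Lgr6 mouse 2 held 3 and 1 counts of Sftpc and that of Lgr6 mouse 1 held 0.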

How the results depend on the processing

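Since alternatives test different numbers of genes, calls over all genes are given as percent of genes tested. The comparison of the lines called 0% by edgeR, 4.11% (567 genes) with DESeq2, 0.738% with all single-cell wells and 2.07% (408) with no filter on low counts. Leaving out each mouse gave 0 to 0.217%, with 0.217% (34) without Lgr6 replicate 1 and 0.0457% (7) without Lgr6 replicate 2. Listed genes called were 2 with DESeq2, 4 with no filter and 0 to 2 without each mouse, 2 without either Lgr6 replicate. With the mouse number as a replicate block, 0% of genes and 0 listed genes were called; pairing by number was not used, since numbers name different animals. Kept against removed wells gave 0%, 3.51% (508) with DESeq2, 0.0381% (5) with the Lgr6 mice alone, 0.0628% (11) with library size in place of TMM, 0.253% (58) with no filter, 0 to 0.00666% without each mouse (1 gene without Lgr5 replicate 1) and 0% without the block. Listed genes called there were 6, 2 and 2 with DESeq2, the Lgr6 mice alone and no filter, and 0 without each mouse and without the block.

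With limma, 17 of 31 listed genes changed sign in the line comparison under either pseudocount; of the 5 with an unadjusted p under 0.05 by edgeR this was Chia, at -0.59 and -0.58 with pseudocounts of 0.1 and 1. Without broad cells, 10 of 25 listed genes changed sign between removed and kept wells, Sftpa1 and Sftpc to 2.85 and 3.19 among them. Broad cells became 26 with a limit of 4 panel genes. The few class became 72 at a TPM above 10 and 69 when thinned, surfactant alone 39 with 8 type II genes in the panel, and none 17 with any count, 76 at a TPM above 10 and 55 when thinned. The cause was not tested for any of these. Low genes rest on single reads, which limits their shares at these depths.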

Other observations

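Other genes followed the listed ones in the broad cells, which were defined from the same libraries, so these are descriptions. Of genes outside the list, Cd36, a fatty acid transporter, was above a TPM of 1 in 14 of 15 broad cells and 7 of the other kept cells. Cbr2, a carbonyl reductase of lung, was found in 14 and 9, the syndecan gene Sdc1 in 13 and 2, Emb in 13 and 2, and Gpr116, a receptor that restrains surfactant release, in 13 and 4. Alcam was found in 14 and 16, Hp, haptoglobin, in 13 and 6, Chchd10 in 14 and 20, Ctsh, a cathepsin that processes surfactant protein, in 14 and 22, and Anxa3 in 13 and 12.

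Of 14 other genes known from type II cells, 10 were found in 10 or more of the 12 cells with the highest Sftpc, and all 14 had a higher share there than in the cells outside the broad class (median share 83.3% against 0.898%). Of 11 lipid synthesis genes, 6 were found in 10 or more of the 12, and 10 had a higher share (83.3% against 20.4%), the exception being Elovl6, a fatty acid elongase. Over all 22276 genes, 984 were found in 10 or more of the 12, and the medians were 8.33% and 5.99%. Scgb1a1 was found in 7 of the 12 cells, and in 12, 6, 4 and 2 kept cells outside the broad class.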
